A study of Saccharomyces cerevisiae with 8 samples.

Results

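The transcripts described here are the Xrn1-sensitive unstable transcripts (XUTs) of *Saccharomyces cerevisiae* that lie at least 30 kb from a chromosome end. They are the 1408 rows typed as XUT on the 16 nuclear chromosomes whose distance to the nearer end is 30 kb or more, out of 11436 rows in the table, and another 179 XUTs lie nearer than that. XUTs are non-coding RNAs made by RNA polymerase II, often from the strand opposite a gene. They reach the cytoplasm and are decapped and degraded from the 5′ end by the exonuclease Xrn1, so that they are usually mapped in cells that lack XRN1 and are scarce where it is present. They are grouped beside cryptic unstable transcripts (CUTs), which the nuclear exosome removes, and stable unannotated transcripts (SUTs).

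Total RNA of exponentially growing W303 yeast was sequenced in 8 libraries, 2 of each strain. Strain GPD-SIR3 overexpresses SIR3, by its name from the strong GPD promoter, GPD-SIR3-A2Q overexpresses the A2Q point mutant of SIR3, SIR3Δ lacks SIR3, and WT is the wild type. Sir3 binds nucleosomes as a subunit of the SIR complex, which silences chromosome ends and the silent mating-type cassettes. The series asks how silent domains near the chromosome ends depend on the dose of Sir3. The labels do not tell whether both libraries of each strain were grown as separate cultures, so the spread behind the p-values may be technical.

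SIR3 itself had 10730 and 13865 scaled reads in GPD-SIR3, 13132 and 13217 in GPD-SIR3-A2Q, 39.1 and 36.8 in SIR3Δ, and 448 and 484 in WT. The labels hold for the dose of SIR3 RNA, while these levels cannot show the A2Q substitution. XRN1 had 3111 to 3606 scaled reads in GPD-SIR3, 3667 to 3860 in GPD-SIR3-A2Q, 2905 to 3391 in SIR3Δ and 3094 to 3490 in WT, so XUTs were measured here with XRN1 expressed. Mating-type markers placed WT with alpha cells. The alpha-cell receptor gene STE3 had 2033 and 2287 scaled reads in WT, against 41.9 and 35.9 for STE2, the receptor gene of a cells. MFA1 and MFA2, which encode the pheromone of a cells, had 0 in both WT libraries. HMRA1, the a1 gene of the silent HMR cassette, was listed at 0 in both GPD-SIR3 and both WT libraries, at 7.58 and 13.4 in GPD-SIR3-A2Q, and at 58.5 and 48.9 in SIR3Δ.

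Most of the XUTs that changed in SIR3Δ, described below, start beside genes of mating type. From the XUTs called in SIR3Δ, 4 start regions that hold short motifs of the regulators Rme1, alpha1 or a1-alpha2 are printed from the RefSeq genome R64. They were picked for these motifs and do not stand for the rest. XUT0892 among them is head-to-head with RPL43B, which is not in the mating lists. Each runs from 250 bases before the XUT's first base to 50 bases into it, 5′ to 3′ on the XUT's strand. Capitals mark ACCTCAA, the core bound by Rme1, in XUT0892 (chrX:607435-607734, minus strand). They mark CAATGACAG, the element bound by alpha1, in XUT0912 (chrXI:114835-115134, plus strand). They mark TACATCA or its complement, one arm of the operator bound by the a1-alpha2 repressor, in XUT1052 (chrXII:675412-675711, plus strand) and XUT0197 (chrIV:49551-49850, plus strand).
XUT0892: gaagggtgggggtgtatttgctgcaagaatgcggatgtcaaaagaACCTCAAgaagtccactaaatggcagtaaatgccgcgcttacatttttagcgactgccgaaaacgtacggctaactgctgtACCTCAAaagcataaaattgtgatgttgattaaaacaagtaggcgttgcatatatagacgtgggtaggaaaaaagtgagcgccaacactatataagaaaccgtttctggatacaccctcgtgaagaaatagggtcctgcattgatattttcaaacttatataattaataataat
XUT0912: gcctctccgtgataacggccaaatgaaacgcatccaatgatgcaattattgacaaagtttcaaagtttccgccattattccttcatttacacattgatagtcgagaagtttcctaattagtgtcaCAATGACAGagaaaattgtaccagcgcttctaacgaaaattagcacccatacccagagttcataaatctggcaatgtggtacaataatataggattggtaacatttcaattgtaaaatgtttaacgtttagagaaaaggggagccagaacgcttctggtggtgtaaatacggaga
XUT1052: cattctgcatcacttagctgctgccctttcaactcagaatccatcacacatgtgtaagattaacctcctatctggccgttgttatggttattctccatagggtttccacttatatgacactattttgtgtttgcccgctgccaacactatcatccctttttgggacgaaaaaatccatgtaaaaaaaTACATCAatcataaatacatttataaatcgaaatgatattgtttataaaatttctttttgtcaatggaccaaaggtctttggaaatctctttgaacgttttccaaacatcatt
XUT0197: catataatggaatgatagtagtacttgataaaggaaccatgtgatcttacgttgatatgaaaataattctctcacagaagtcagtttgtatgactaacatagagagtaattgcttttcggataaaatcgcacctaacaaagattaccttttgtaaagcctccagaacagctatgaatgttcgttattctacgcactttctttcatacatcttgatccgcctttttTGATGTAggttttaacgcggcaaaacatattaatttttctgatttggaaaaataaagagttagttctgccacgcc
The motifs were looked for on both strands and were chosen after the values of these XUTs had been seen. Within the same window, the Rme1 core occurred at 43 of the 1408 XUTs (3.05%), the alpha1 element at 7 (0.497%) and the a1-alpha2 arm at 86 (6.11%). XUT0892 holds the Rme1 core at a pair of places, starting 205 and 124 bases before its first base. The alpha1 element starts 125 bases before XUT0912, the a1-alpha2 arm 63 bases before XUT1052, and the complement of that arm 25 bases before XUT0197. The a1-alpha2 arm also starts 160 bases before XUT0250, which lies beside no gene of mating type. The other 6 of the 11 XUTs called in SIR3Δ against WT hold none of the 3 motifs. Among them are XUT0820, XUT1549, XUT1021 and XUT1575, which start beside genes of mating type. A match is a string of letters and does not show that a factor binds there.

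Most XUTs away from the ends ran opposite to a gene. Of the 1408, 1036 (73.6%) overlapped at least 1 gene row on the other strand, 84 of them 2 or more genes, and none overlapped a gene row on the same strand. Taking the gene with the longest overlap, 162 XUTs covered the whole gene, 370 its start but not its end, 177 its end but not its start, and 327 lay inside it. A gene lay within 2 kb or overlapped for 1405 of the XUTs. For 913 (64.8%), a gene on the other strand starts within 2 kb upstream of the XUT's own start, and these are called head-to-head pairs below. Other transcripts can start between the 2, as XUT0195 and XUT0196 do between HO and XUT0197, so a shared start region is not shown. The median gap in such pairs was 426 bases.

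XUT lengths ran from 200 to 4598 bases with a median of 586. Another non-coding row overlapped 1021 of the XUTs (72.5%) on the same strand, among them a SUT for 419 and a CUT for 186, so that the same reads can be counted in both rows. By the RefSeq annotation, 23 of the XUTs lie on the strand of a protein-coding gene that has no row in the table, and 78 overlap a long terminal repeat or a mobile element. Of the 3 XUTs just inside the distance limit, at 30.03, 30.1 and 30.1 kb, the mean levels were 3.23, 7.23 and 4.52 scaled reads. The 3 just outside it, at 29.8, 29.8 and 29.9 kb, had 46.5, 3.44 and 19.6.

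XUTs were expressed at low levels in all 4 strains. Levels are read counts scaled so that genes sum to the same total in every library, and 1 read is worth 0.388 to 1 scaled reads. Reads on the 1408 XUTs made up 0.255% and 0.278% of all reads in GPD-SIR3, 0.254% and 0.262% in GPD-SIR3-A2Q, 0.276% and 0.249% in SIR3Δ, and 0.288% and 0.286% in WT. Per kb of length, the median mean level over the 8 libraries was 13.3 scaled reads for XUTs, 9.52 for CUTs, 22.9 for SUTs and 213 for genes at the same distance from the ends. Between 51 and 157 XUTs had no read in a given library, and 4 had none in any. The filter asked for 10 or more scaled reads in 2 or more libraries, 742 of the 1408 XUTs (52.7%) met it, and only these entered the test. The other 666 are too shallow to be tested, which does not show that they were unchanged.

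**Figure D1:**
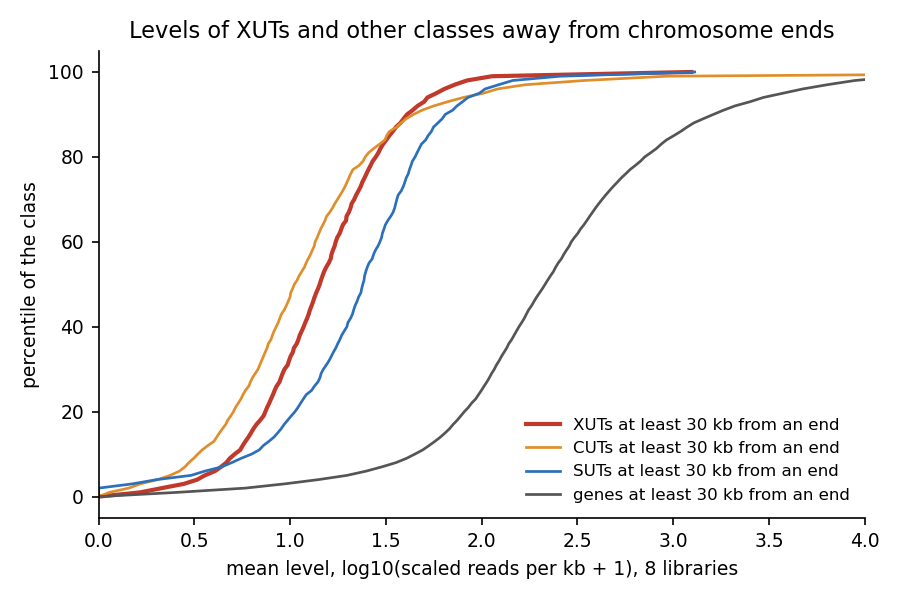
Percentile curves of the mean level over the 8 libraries, in log10(scaled reads per kb + 1), for XUTs, CUTs, SUTs and genes at least 30 kb from a chromosome end. The XUT curve has its middle at 13.3 scaled reads per kb, between those of CUTs (9.52) and SUTs (22.9) and far left of that of genes (213).

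The 5 XUTs with the highest level per kb were XUT0158, XUT0079, XUT0349, XUT1209 and XUT0630, at 1244, 1165, 732, 277 and 226 scaled reads per kb. None of these passed the test in any comparison. XUT0158 (chrIII:168958-169260) had 539 and 433 scaled reads in GPD-SIR3, 300.3 and 329 in GPD-SIR3-A2Q, 253 and 213 in SIR3Δ, and 559 and 389 in WT. The SIR3Δ libraries were the lowest and did not overlap WT, yet the change of -1.0 ± 0.26 (log2, SE) missed the threshold (limma adjusted p = 0.174). RefSeq places MEO1, a protein-coding gene without a row in the table, over 47.2% of XUT0079. It places the pseudogene CCW22 over 30.3% of XUT0349 on the same strand, and long terminal repeats over parts of XUT1209 and XUT0630. These high levels may therefore not come from non-coding RNA alone. The XUT within 2 kb of SIR3, XUT1117, had 12.6 and 0 scaled reads in GPD-SIR3, 4.66 and 4.02 in GPD-SIR3-A2Q, 3.88 and 2.91 in SIR3Δ, and 3.46 and 0.588 in WT, and was too shallow to test.

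Changes were tested with limma on log2(scaled reads + 1) over all 3093 non-coding rows past the filter, with calls at a Benjamini-Hochberg adjusted p below 0.05. A fold change on this scale understates the change of low transcripts. In SIR3Δ against WT, 11 of the 742 tested XUTs (1.48%) fell and none rose by limma. Over all non-coding rows tested, 0.938% fell and 0.0647% rose. edgeR, DESeq2 and limma-voom also called no XUT higher, and 54 XUTs (7.28%) had an unadjusted p below 0.05 in either direction, against 6.53% of all rows tested. In GPD-SIR3 against WT, 3 XUTs (0.404%) fell and none rose, with 2.46% of all rows tested lower and 0.0323% higher. In that comparison 42 XUTs (5.66%) had an unadjusted p below 0.05, against 9.86% of all rows tested, and the other 3 tools called none higher. All rows include those nearer the ends and the XUTs themselves. Of the SUTs and CUTs tested at least 30 kb from an end, limma called 0.524% and 0% lower in GPD-SIR3 against WT. The same shares were 0.699% and 0.392% in SIR3Δ against WT.

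In GPD-SIR3-A2Q against WT, limma called 0 XUTs, and 0% of all non-coding rows tested in either direction. There 64 XUTs (8.63%) had an unadjusted p below 0.05, against 7.57% of all rows tested. By the other tools, edgeR called 1 XUT lower against 0.0647% of all rows, limma-voom 1 against 0.097%, and DESeq2 7 against 0.679%. In GPD-SIR3 against GPD-SIR3-A2Q, 4 XUTs (0.539%) were higher and none lower by limma, with 0.42% of all rows tested higher and 2.52% lower. None was lower by the other 3 tools, and 70 XUTs (9.43%) had an unadjusted p below 0.05, against 11.9% of all rows tested. Of the SUTs and CUTs at the same distance from the ends, limma called 0.524% and 0.392% higher and 0.35% and 0% lower. Both comparisons of GPD-SIR3 use the same GPD-SIR3 libraries, and the 3 comparisons against WT share the WT libraries.

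Against WT, the median log2 change of the 742 tested XUTs was -0.04 in GPD-SIR3 (-0.08 over all non-coding rows tested), -0.05 in GPD-SIR3-A2Q (-0.02 over all rows) and 0.00 in SIR3Δ (0.04 over all rows). GPD-SIR3 against GPD-SIR3-A2Q gave -0.03, beside -0.08 over all rows. These medians depend on the scaling to genes. An alternative set equal sums over the rows of XUT, CUT and SUT types past the filter. XUT medians were then -0.25 in GPD-SIR3 against WT, -0.21 in GPD-SIR3-A2Q against WT, -0.33 in SIR3Δ against WT and -0.09 in GPD-SIR3 against GPD-SIR3-A2Q. Those of all rows lay between -0.14 and -0.30. The sums hold 1 CUT with a mean of 221641 scaled reads. In the same order, XUT medians were 0.07, -0.01, -0.004 and 0.07 with edgeR, and 0.06, -0.004, -0.005 and 0.05 with DESeq2. No direction is drawn from them. By distance, GPD-SIR3 against WT had a median of -0.08 for the 49 tested XUTs 30 to 50 kb from an end, 0.00 at 50 to 100 kb (104 XUTs), -0.05 at 100 to 200 kb (181) and -0.03 beyond (408). Among the 179 XUTs nearer than 30 kb, of which 100 were tested, the median was -0.64 and 24 fell in the same comparison.

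**Figure D2:**
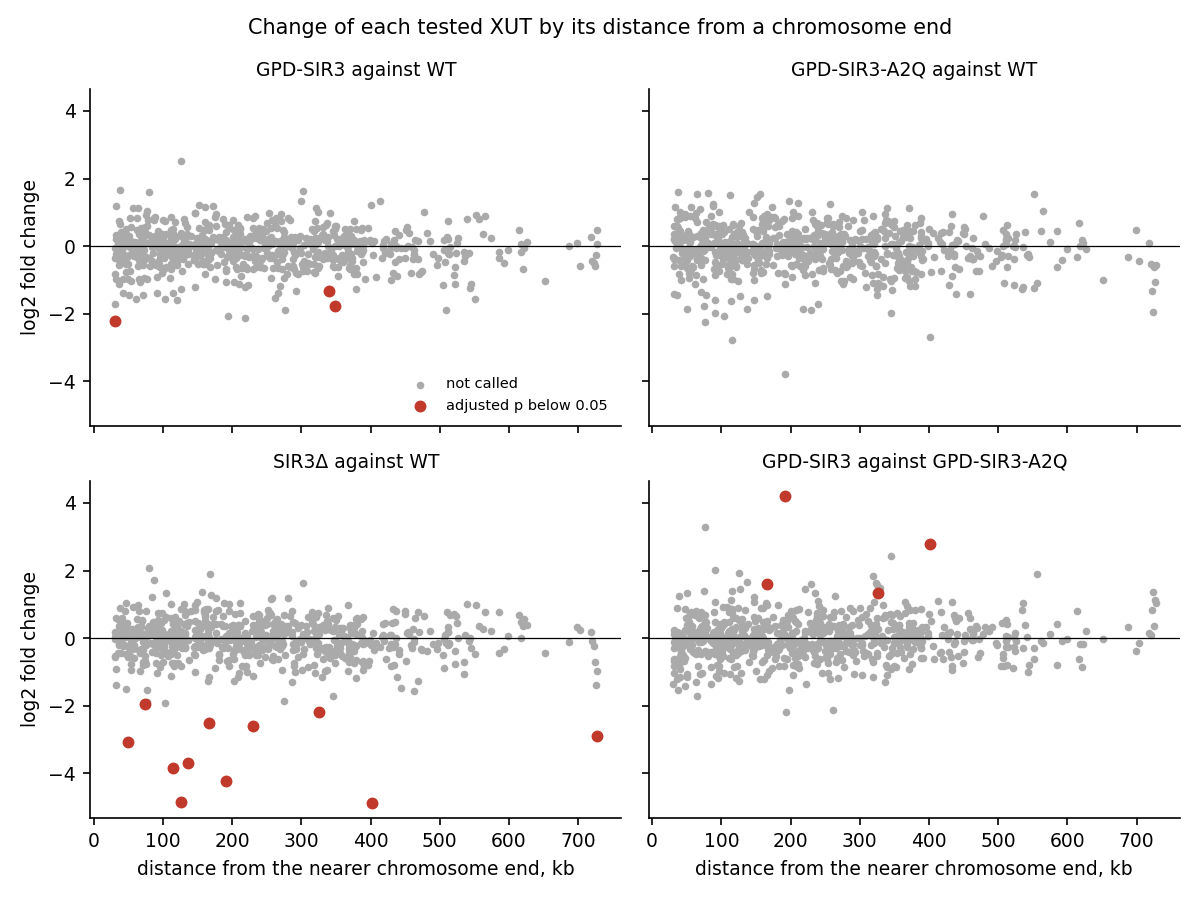
Log2 fold change of each of the 742 tested XUTs against its distance from the nearer chromosome end in kb, for the 4 comparisons, with called XUTs in red. The 11 called XUTs of SIR3Δ against WT are spread from 49.8 to 727 kb, and 0 are called in GPD-SIR3-A2Q against WT.

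Of the 11 XUTs that fell in SIR3Δ, 7 stand head-to-head with a gene used only in alpha cells or only in haploid cells. These are XUT1052 with NEJ1, XUT0820 with FAR1, XUT1549 with MF(ALPHA)1, XUT0912 with STE3, XUT0197 with HO, XUT1021 with YLR040C and XUT1575 with AXL1. In haploid cells the product of the MAT locus sets which of these genes are on: alpha1 activates alpha-specific genes, and a1 with alpha2 represses haploid-specific genes where both are present. Cells that lose silencing at HML and HMR carry both kinds of information, and their haploid-specific genes are known to be turned down.

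The alpha-specific pairs come first. XUT0912 (chrXI:115085-115645, plus strand) starts 457 bases from STE3, the receptor for the pheromone of a cells, and overlaps 5.9% of LST4 on the other strand. It had 22.9 and 29.0 scaled reads in GPD-SIR3, 7.0 and 12.1 in GPD-SIR3-A2Q, 3.88 and 3.88 in SIR3Δ, and 84.7 and 56.5 in WT. Both SIR3Δ libraries were far below both WT libraries, with GPD-SIR3-A2Q and GPD-SIR3 in between, and the change in SIR3Δ was -3.85 ± 0.40 (limma adjusted p = 0.000481). STE3 itself had 1709 and 1532 scaled reads in GPD-SIR3, 233 and 283 in GPD-SIR3-A2Q, 39.9 and 32.0 in SIR3Δ, and 2033 and 2287 in WT, a change of -5.88 ± 0.16 in SIR3Δ (limma adjusted p = 1.46e-07). In GPD-SIR3-A2Q against WT, XUT0912 was the XUT nearest to the threshold, at -2.78 ± 0.40 (limma adjusted p = 0.060). XUT0912 shares its strand with SUT226.

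XUT1549 (chrXVI:191374-192809, minus strand) starts 838 bases from MF(ALPHA)1, which encodes the alpha-factor precursor, and covers all of POS5, the mitochondrial NADH kinase gene, on the other strand. It had 51.3 and 40.0 scaled reads in GPD-SIR3, 0 and 5.37 in GPD-SIR3-A2Q, 0.388 and 1.45 in SIR3Δ, and 33.7 and 33.5 in WT. It was close to absent in SIR3Δ and in 1 GPD-SIR3-A2Q library, and changed by -4.23 ± 0.76 in SIR3Δ (limma adjusted p = 0.0169). Leaving out any single WT, SIR3Δ or GPD-SIR3 library ended this call, with an adjusted p up to 0.221. MF(ALPHA)1 changed by -9.15 ± 0.34 in SIR3Δ (limma adjusted p = 9.71e-07), while POS5 had 284 and 280 scaled reads in SIR3Δ and 278 and 278 in WT. XUT1021 (chrXII:229881-230637, plus strand) starts 298 bases from YLR040C, an alpha-specific gene, and covers all of YLR042C on the other strand. YLR042C, unlike POS5, was lower in SIR3Δ, with a log2 change of -1.85. XUT1021 fell by 2.62 ± 0.44 in SIR3Δ (limma adjusted p = 0.0115), to 7.36 and 5.33 scaled reads, against 38.0 and 50.0 in WT. That call was lost without any one of the SIR3Δ or WT libraries (adjusted p up to 0.149).

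**Figure D3:**
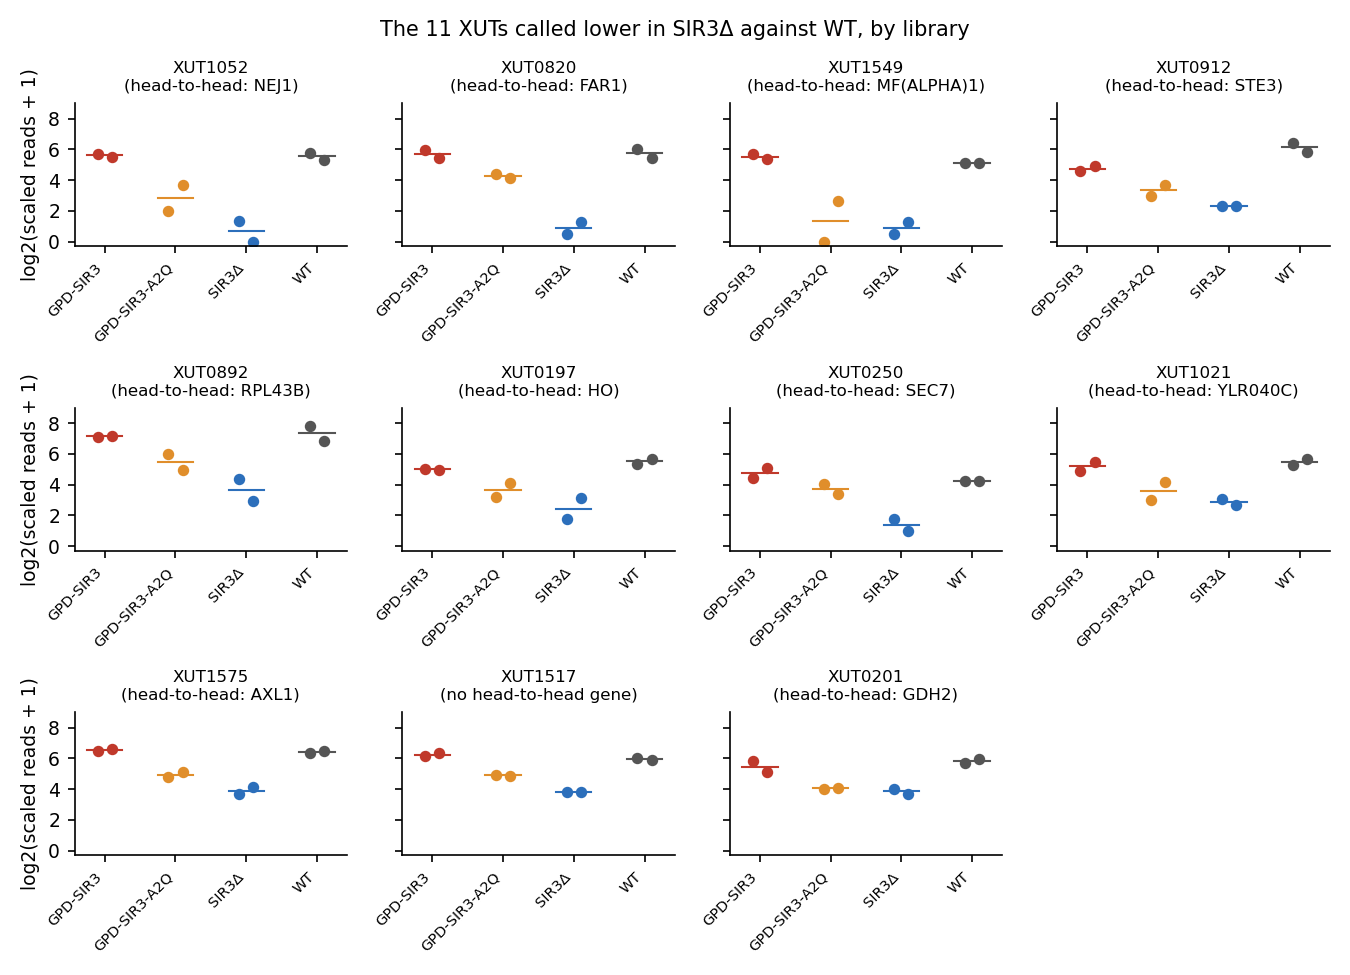
Levels in log2(scaled reads + 1) of the 11 XUTs called lower in SIR3Δ against WT, with 1 point per library and a line at the mean of each strain. In each panel both SIR3Δ points lie below both WT points, and the GPD-SIR3-A2Q means lie below the WT means.

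Among the haploid-specific pairs, XUT1052 (chrXII:675662-676443, plus strand) and XUT0820 fell by similar amounts. XUT1052 starts 206 bases from NEJ1, a regulator of non-homologous end joining, and lies wholly opposite PDR8, a gene for a transcription factor of drug resistance. It had 52.2 and 45 scaled reads in GPD-SIR3, 2.92 and 12.1 in GPD-SIR3-A2Q, 1.55 and 0 in SIR3Δ, and 52.7 and 39.4 in WT. The change in SIR3Δ was -4.87 ± 0.61 (limma adjusted p = 0.00143), beside -3.01 ± 0.40 for NEJ1 (limma adjusted p = 0.00751, up to 0.0831 without 1 SIR3Δ or WT library), and the values of PDR8 overlapped, at 150.4 and 189.9 in SIR3Δ and 140.1 and 160.5 in WT. XUT0820 (chrX:126755-129019, plus strand) starts 426 bases from FAR1, which arrests the cell cycle in response to pheromone, and covers all of SSY5, a protease gene of amino acid sensing, on the other strand. It had 61.2 and 43.0 scaled reads in GPD-SIR3, 19.8 and 16.8 in GPD-SIR3-A2Q, 0.388 and 1.45 in SIR3Δ, and 63.1 and 43.5 in WT. It fell by 4.86 ± 0.41 in SIR3Δ (limma adjusted p = 0.000291), with FAR1 at -4.28 ± 0.23 and SSY5 at 0.04 ± 0.18.

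XUT1575 (chrXVI:780327-781797, minus strand) starts 247 bases from AXL1, a protease gene of pheromone maturation and axial budding. It had 87.7 and 99.0 scaled reads in GPD-SIR3, 26.2 and 34.2 in GPD-SIR3-A2Q, 11.6 and 16.5 in SIR3Δ, and 81.3 and 87.6 in WT. GPD-SIR3 reached the level of WT, SIR3Δ was lowest, and the change in SIR3Δ was -2.52 ± 0.30 (limma adjusted p = 0.00128). XUT0197 (chrIV:49801-51047, plus strand) starts 1769 bases from HO, the endonuclease of mating-type switching, and had 2.33 and 7.75 scaled reads in SIR3Δ, against 39.8 and 50.0 in WT. Its change of -3.08 ± 0.49 (limma adjusted p = 0.00730) was lost without SIR3Δ 1, without WT 1 or without WT 2, with an adjusted p up to 0.112.

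All head-to-head partners of this kind were listed, whether tested or not. The 1408 XUTs hold 14 that are head-to-head with a gene of the mating lists, and 7 of these passed the filter, which a transcript low in SIR3Δ passes only through the other strains. The 7 below the filter are XUT0195 and XUT0196 (HO), XUT0654 (GPA1), XUT1066, XUT1067 and XUT1068 (SST2) and XUT1448 (STE4). Together the 7 untested had 29.7 and 27.0 scaled reads in GPD-SIR3, 31.5 and 22.8 in GPD-SIR3-A2Q, 12.0 and 4.84 in SIR3Δ, and 25.9 and 34.7 in WT. All 14 together had 365 and 357 scaled reads in GPD-SIR3, 103 and 136 in GPD-SIR3-A2Q, 39.5 and 41.2 in SIR3Δ, and 419 and 395 in WT.

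XUTs that overlap a mating gene on the other strand were described apart. There were 14 such XUTs, 9 of which were tested, and none was called in any comparison by limma, edgeR, DESeq2 or limma-voom. In SIR3Δ against WT, limma gave 2 of the 9 (22.2%) an unadjusted p below 0.05, against 6.53% of all non-coding rows tested. Of these, XUT0573 was lower and XUT1576 higher. In GPD-SIR3 against GPD-SIR3-A2Q it was 1 of the 9 (11.1%), against 11.9% of all rows. GPD-SIR3 and GPD-SIR3-A2Q against WT gave 0, against 9.86% and 7.57% of all rows. Together the 14 had 541 and 494 scaled reads in GPD-SIR3, 620 and 649 in GPD-SIR3-A2Q, 660 and 639 in SIR3Δ, and 634 and 452 in WT. The SIR3Δ sums lay above both WT sums, by less than the gap between the WT libraries. XUT0819, given below, had the highest mean level of the 14, and without it the other 13 had 224 and 261 scaled reads in GPD-SIR3, 252 and 273 in GPD-SIR3-A2Q, 245 and 253 in SIR3Δ, and 284 and 228 in WT. The SIR3Δ sums then lay between the WT sums.

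The genes of these sets differ in kind as well as in position. The head-to-head partners are all alpha-specific (3 XUTs) or haploid-specific (11), while 8 of the 14 XUTs on the other strand lie opposite a-specific or meiotic genes, none of which was called in SIR3Δ against WT. Position and gene class therefore cannot be told apart over the whole sets. The 6 opposite alpha-specific or haploid-specific genes had 407 and 326 scaled reads in GPD-SIR3, 483 and 502 in GPD-SIR3-A2Q, 537 and 530 in SIR3Δ, and 453 and 319 in WT. Without XUT0819 the other 5 had 90.9 and 93 in GPD-SIR3, 115 and 125 in GPD-SIR3-A2Q, 121 and 143 in SIR3Δ, and 102 and 95.3 in WT.

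XUT0819 (chrX:123786-126430, plus strand) covers all of FAR1 and had 316 and 233 scaled reads in GPD-SIR3, 368 and 376 in GPD-SIR3-A2Q, 415 and 387 in SIR3Δ, and 351 and 224 in WT. FAR1 on the other strand had 24.4 and 26.2 scaled reads in SIR3Δ and 417 and 620 in WT. XUT0819 changed by 0.51 ± 0.28 in SIR3Δ (limma adjusted p = 0.833), beside the fall of XUT0820, its neighbour on the same strand. XUT1576, which covers 96.5% of AXL1, had 79.1 and 83.8 scaled reads in SIR3Δ and 42.4 and 47.0 in WT, a change of 0.85 ± 0.33 that did not pass (limma adjusted p = 0.652). XUT0573 covers RME3, an antisense RNA of ZIP2, a gene of meiotic synapsis, and had 42.2 and 38.8 scaled reads in SIR3Δ and 108 and 54.7 in WT (change -0.91 ± 0.37, limma adjusted p = 0.660). The other members of this kind were opposite HO, BAR1, ASG7, SAG1, IME2, STE6 and NEJ1, and their values ranged from 0 to 61.6 scaled reads over all libraries.

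**Figure D4:**
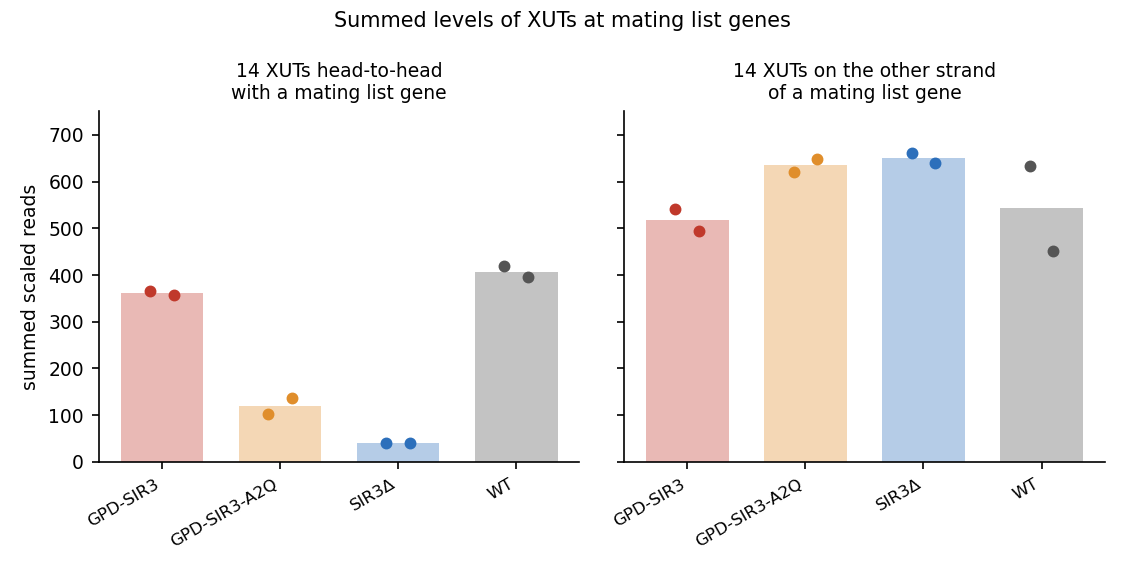
Summed scaled reads in each library (points, bars at the strain mean) of the 14 XUTs head-to-head with a gene of the mating lists and of the 14 XUTs on the other strand of such a gene. The head-to-head sums are 39.5 and 41.2 in SIR3Δ and 419 and 395 in WT, and the other-strand sums are 660 and 639 in SIR3Δ and 634 and 452 in WT, of which XUT0819 alone gave 415 and 387 in SIR3Δ and 351 and 224 in WT.

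Of the other 4 XUTs that fell in SIR3Δ, XUT0892 (chrX:605909-607484, minus strand) was the most abundant. It spans all of the RefSeq non-coding RNA IRT1, which is transcribed across the promoter of IME1, the master regulator of meiotic entry, and is known to hold IME1 down in haploid cells. It had 137 and 143 scaled reads in GPD-SIR3, 64.1 and 30.2 in GPD-SIR3-A2Q, 19.4 and 6.78 in SIR3Δ, and 224 and 116 in WT. Both SIR3Δ libraries lay well below both WT libraries, whose own values were far apart, and the change was -3.69 ± 0.49 (limma adjusted p = 0.00176). RME1, the haploid-specific activator of IRT1, had 477 and 611 scaled reads in GPD-SIR3, 139 and 190 in GPD-SIR3-A2Q, 38.8 and 48.4 in SIR3Δ, and 587 and 554 in WT. IME1 stayed low in all strains, with 10.1 and 14.5 scaled reads in SIR3Δ and 8.21 and 4.70 in WT (limma adjusted p = 0.778). XUT0892 shares its strand with SUT643.

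XUT1517 (chrXVI:620140-621858, plus strand) covers all of YPR027C on the other strand. It had 69.3 and 81.0 scaled reads in GPD-SIR3, 29.7 and 28.2 in GPD-SIR3-A2Q, 12.8 and 13.1 in SIR3Δ, and 65.7 and 60.0 in WT, a change of -2.19 ± 0.29 in SIR3Δ (limma adjusted p = 0.00168). The libraries of each strain were close to each other, and no library of SIR3Δ or GPD-SIR3-A2Q reached WT. XUT0201 (chrIV:74721-76792, plus strand) covers 86.9% of PRR2, a kinase gene of pheromone signalling, on the other strand, and had 15.1 and 12.1 scaled reads in SIR3Δ, against 50.1 and 61.2 in WT. Its change of -1.96 ± 0.35 (limma adjusted p = 0.0154) was lost without any one of the SIR3Δ or WT libraries (adjusted p up to 0.220).

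XUT0250 (chrIV:803916-804177, plus strand) had 2.33 and 0.969 scaled reads in SIR3Δ, against 18.2 and 18.2 in WT, a change of -2.91 ± 0.49 (limma adjusted p = 0.0106). It lies wholly inside YDR170W-A on the same strand, a retrotransposon reading frame in RefSeq that has no row in the table. Of its 50-base stretches, 41.8% also occur elsewhere in the genome, so its reads may belong to other copies and its value is uncertain. The call was also lost without SIR3Δ 2, WT 1 or WT 2 (adjusted p up to 0.126), with limma-voom (adjusted p = 0.3004) and with only the groups compared in the fit (adjusted p = 0.128). The same share was 0% for the other called XUTs except XUT1575, at 0.774%.

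In all 11 of these XUTs the mean of GPD-SIR3-A2Q lay between the means of SIR3Δ and WT. Against WT their log2 changes in GPD-SIR3-A2Q ran from -3.78 for XUT1549 to -0.57 for XUT0250, and limma called none of them. The 7 that DESeq2 called in this comparison are all among the 11: XUT0201, XUT0892, XUT0912, XUT1021, XUT1052, XUT1549 and XUT1575. The 1 called by edgeR and by limma-voom was XUT0912. Of the genes head-to-head with the 11 XUTs, FAR1, AXL1 and HO passed limma. They changed by -2.98 ± 0.23, -1.74 ± 0.18 and -2.43 ± 0.37 in GPD-SIR3-A2Q against WT (limma adjusted p = 0.000321, 0.00197 and 0.0169). The call of HO was lost without any one of the GPD-SIR3-A2Q or WT libraries (adjusted p up to 0.1845). STE3, YLR040C and MF(ALPHA)1 passed as well, the last not without any one of those libraries (adjusted p up to 0.1305). NEJ1 (limma adjusted p = 0.0592), GDH2 beside XUT0201 (0.823) and SEC7 beside XUT0250 (0.903) did not pass. These comparisons share the WT libraries with SIR3Δ against WT. In a population of cells, a lower level of an RNA in every cell and fewer cells that make it cannot be told apart.

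GPD-SIR3 against GPD-SIR3-A2Q called 4 of the same XUTs, all higher in GPD-SIR3. XUT1549 differed by 4.20 ± 0.76, XUT1052 by 2.79 ± 0.61, XUT1575 by 1.60 ± 0.30 and XUT1517 by 1.34 ± 0.29 (limma adjusted p = 0.0118, 0.0331, 0.0145 and 0.0289). The SIR3 level differed by -0.11 ± 0.13 between these strains. All 4 calls were lost without GPD-SIR3 1, without GPD-SIR3 2 or with only the groups compared in the fit. Those of XUT1052, XUT1575 and XUT1517 were also lost without GPD-SIR3-A2Q 1. That of XUT1052 was also lost without either WT library or with genes fitted together with non-coding rows. That of XUT1517 was also lost without GPD-SIR3-A2Q 2 or either SIR3Δ library. Equal sums over the XUT, CUT and SUT types ended the calls of XUT1575 and XUT1517.

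The 3 XUTs that fell in GPD-SIR3 against WT were others. XUT0014 (chrI:31222-31538, plus strand) lies 31.2 kb from the end of chromosome I, 28 bases from GDH3, a glutamate dehydrogenase gene on its strand. It had 7.65 and 7.0 scaled reads in GPD-SIR3, 21.0 and 8.72 in GPD-SIR3-A2Q, 32.6 and 20.3 in SIR3Δ, and 43.7 and 32.9 in WT, and fell by 2.23 ± 0.44 in GPD-SIR3 (limma adjusted p = 0.0225). GPD-SIR3 was lowest and apart from WT, and GDH3 had 28.3 and 50.0 scaled reads in GPD-SIR3 and 76.5 and 60.0 in WT (-0.83 ± 0.29, limma adjusted p = 0.419). XUT1428 (chrXV:348987-349545, minus strand), head-to-head with the sterol transporter gene AUS1 at 133 bases, had 13.9 and 9.0 scaled reads in GPD-SIR3, 21.6 and 19.4 in GPD-SIR3-A2Q, 22.5 and 25.7 in SIR3Δ, and 50.1 and 32.9 in WT. It fell by 1.77 ± 0.36 in GPD-SIR3 (limma adjusted p = 0.0254), with AUS1 at 0.16 ± 0.15.

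XUT0878 (chrX:339431-342244, minus strand) covers 99.6% of IRC8 on the other strand and is head-to-head with MTR4, the helicase of the nuclear exosome, at 277 bases. It had 23.4 and 29.0 scaled reads in GPD-SIR3, 50.1 and 64.4 in GPD-SIR3-A2Q, 54.7 and 57.6 in SIR3Δ, and 61.8 and 73.5 in WT, and fell by 1.34 ± 0.29 in GPD-SIR3 (limma adjusted p = 0.0336). The other strains were alike, and IRC8 changed by 0.25 ± 0.21 and MTR4 by -0.28 ± 0.15. These 3 calls depended on single libraries and on the tool. limma-voom called none of them (adjusted p 0.0808 to 0.160). None was called without WT 1 or without GPD-SIR3 2, and 1 was called without either SIR3Δ library. Without WT 2 none of the 3 was called, but XUT1077 was, as higher, and without GPD-SIR3 1 another 3 XUTs joined 1 of them.

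Across the tested XUTs, changes in SIR3Δ against WT ran with those of the head-to-head gene. Over 507 pairs with both tested, Pearson's r was 0.589 and Spearman's rho 0.195, and r was 0.248 over the 497 pairs whose XUT changed by less than 2 on the log2 scale. With the gene on the other strand, r was -0.104 and rho -0.183 over 498 pairs. XUT and gene of a pair come from the same libraries with the same scaling, and XUTs of a cluster can share a gene, so these are descriptions only. With the head-to-head gene, r was 0.134 in GPD-SIR3 against WT, 0.377 in GPD-SIR3-A2Q against WT and 0.330 in GPD-SIR3 against GPD-SIR3-A2Q, comparisons that share libraries with each other and with SIR3Δ against WT. With the other-strand gene it was -0.059 in GPD-SIR3 against WT, -0.094 in GPD-SIR3-A2Q against WT and -0.126 in GPD-SIR3 against GPD-SIR3-A2Q.

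**Figure D5:**
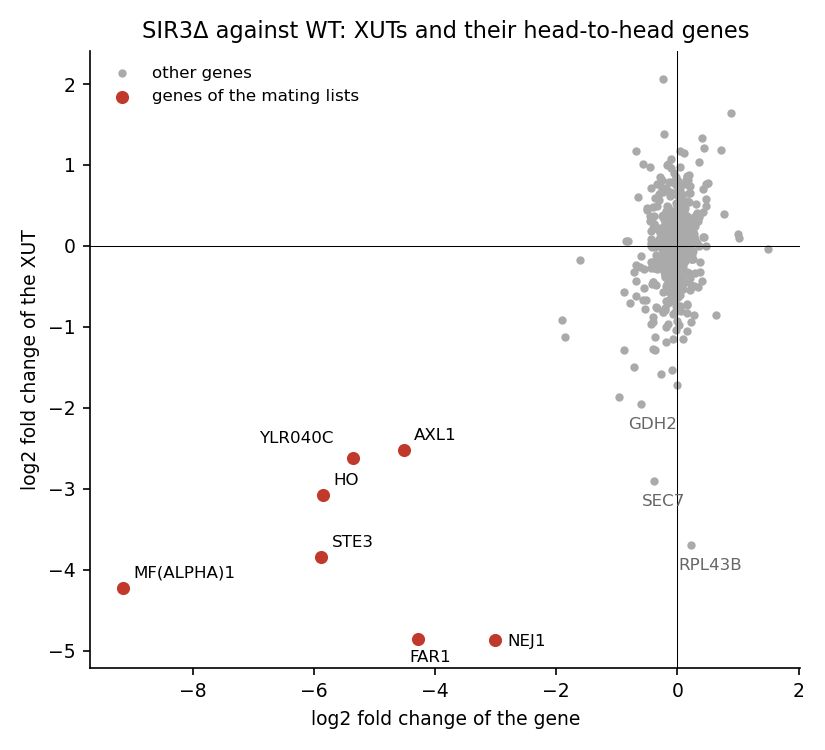
Log2 fold change in SIR3Δ against WT of each tested XUT and of its head-to-head gene (507 pairs), with genes of the mating lists in red. The 7 red pairs are lower on both axes. The called XUT0250 (SEC7), XUT0892 (RPL43B) and XUT0201 (GDH2) are lower with the gene at -0.38, 0.22 and -0.60.

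Genes that act on such transcripts gave no calls. The lists for decapping and 5′ to 3′ decay, nonsense-mediated decay, the nuclear exosome, the cytoplasmic exosome cofactors, early termination and the chromatin factors that restrain antisense transcription hold 73 tested genes. limma called none of them in any of the 4 comparisons, and neither did edgeR, DESeq2 or limma-voom. Of the 73, limma gave 1 an unadjusted p below 0.05 in GPD-SIR3 against WT, 3 in GPD-SIR3-A2Q against WT, 1 in SIR3Δ against WT and 4 in GPD-SIR3 against GPD-SIR3-A2Q. In the same order, 8.68%, 6.85%, 8.44% and 10.2% of all genes tested had such a p. Over all 5473 genes tested, 1.08% fell and 0.238% rose in GPD-SIR3 against WT, 0.621% and 0.128% in GPD-SIR3-A2Q, and 0.786% and 0.183% in SIR3Δ, while 0.877% were lower and 0.585% higher in GPD-SIR3 against GPD-SIR3-A2Q.

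The alpha-specific and haploid-specific lists were called almost whole in GPD-SIR3-A2Q and in SIR3Δ against WT, and the a-specific and meiotic lists were not. All 5 alpha-specific and all 12 haploid-specific genes fell in SIR3Δ against WT, with median changes of -5.88 and -4.05, beside -0.07 over all genes tested. In GPD-SIR3-A2Q against WT 5 and 11 fell, with medians of -3.0 and -2.06, and NEJ1 was the one that missed the threshold (limma adjusted p = 0.0592). In GPD-SIR3 against WT none of the 17 was called by limma, with 1 unadjusted p below 0.05, and the medians were -0.04 and -0.02. In that comparison edgeR, DESeq2 and limma-voom called none of them either. Of the 7 a-specific genes 3 passed the filter, and limma, edgeR, DESeq2 and limma-voom called none of them in any of the 4 comparisons. limma gave 1 an unadjusted p below 0.05, in GPD-SIR3-A2Q against WT. Of the 4 meiotic genes, IME4 alone was called against WT, as higher, with 61.8 and 78.5 scaled reads in GPD-SIR3-A2Q, 132 and 117 in SIR3Δ and 2.16 and 0.588 in WT. HMRA1 values, given above, move with these groups and with the XUTs beside these genes, and their part in the XUTs' changes was not tested.

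The XUTs that match named RefSeq non-coding RNAs were mostly flat. Besides IRT1 and RME3 they are XUT0071 (TBRT), XUT0227 (SUT053), XUT0337 (SUT468), XUT0536 (SUT126), XUT1474 (SUT390) and XUT1480 (YNCP0002W). None of these 6 passed limma, edgeR, DESeq2 or limma-voom in any comparison, and their limma adjusted p ranged from 0.592 to 0.9996. XUT1480, which covers all of GAL4 on the other strand, was the highest of them, with 144 and 155 scaled reads in GPD-SIR3, 110.2 and 130.8 in GPD-SIR3-A2Q, 172 and 139 in SIR3Δ, and 117 and 122 in WT.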

How the data were processed

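Total RNA of 4 W303 strains was sequenced in 2 libraries each, as paired-end reads of zinc-fragmented RNA on SOLiD, per the labels' protocols. The submitters' processing notes name TopHat 1.4.1 and build R64. The counting tool, its handling of multiply matching reads and its use of strand are details not given in the sources used here. The values deposited by the authors for GPD-SIR3 2 are whole counts. In the other 7 libraries the authors deposited a signal, namely counts times 1 factor per library. Division by each library's smallest step returned whole reads, within 0.01 of a read, at 100% of values. Depth was 9847370 to 26668086 reads over all rows and 7006670 to 18077542 on genes, and snoRNAs took 15.4% to 22.8%. Another 16 columns of per-sample values were not used.

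The design called for limma if values were scaled and edgeR if they were counts. As 7 of the 8 libraries are scaled, limma 3.58.1 (trend, R 4.3.3) was run on log2(value + 1) of all 8 libraries in 1 model with 4 residual degrees of freedom, two-sided, for the 3093 non-coding rows that reached 10 scaled reads in 2 or more libraries, and separately for 5473 genes. Exact permutation of 2 against 2 libraries cannot go below p = 0.333 and was not used. The fit was tested on simulated data. Replicates differed beyond counting error (chi-square divided by its degrees of freedom 2.78 to 3.88), so no library was a copy of another.

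Named XUTs were, in each comparison, up to 8 called in each direction whose mean reached 10 and whose groups did not overlap, or the 3 with the smallest p where fewer than 3 were called. Added to these were XUTs within 2 kb of SIR3, XUTs opposite genes of the mating lists or ZIP2, the 5 highest per kb and the genes beside them. The rule on XUTs most like the one with the largest called change in GPD-SIR3-A2Q named none, as none was called. XUTs matching named RefSeq RNAs, head-to-head partners and motifs were chosen after their values were seen. The XUTs and gene lists were chosen with earlier results of these data known. Alternatives used edgeR 4.0.16, DESeq2 1.42.0 and limma-voom on the recovered reads, another pseudocount (10), filters, scalings, fits and each library left out.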

Additional observations from a re-analysis of the deposited data

How the results depend on the processing

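No called XUT changed sign under any alternative. In SIR3Δ against WT the count of 11 fell to 2 with a mean of at least 50 required, where few XUTs were tested, and was 10 to 12 under the other settings with all libraries. limma-voom also called 11, of which 10 were shared. In GPD-SIR3 against WT the count of 3 became 1 with a mean of at least 50, with only the groups compared in the fit, or with genes fitted together with non-coding rows, and 0 with limma-voom. In GPD-SIR3-A2Q against WT the count of 0 became 1 with no filter, with edgeR, with limma-voom or with genes fitted together. It became 3 with a pseudocount of 10, 6 with equal sums over the XUT, CUT and SUT types and 7 with DESeq2. In GPD-SIR3 against GPD-SIR3-A2Q the count of 4 became 1 with a mean of at least 50, 0 with only the groups compared, 7 with edgeR and 9 with DESeq2. With 1 library left out, counts were 0 to 4 in GPD-SIR3 against WT, 0 to 4 in GPD-SIR3-A2Q against WT (4 without GPD-SIR3-A2Q 2), 6 to 11 in SIR3Δ against WT (6 without WT 1, 7 without WT 2, SIR3Δ 1 or SIR3Δ 2), and 0 to 6 in GPD-SIR3 against GPD-SIR3-A2Q (2 without GPD-SIR3-A2Q 1). The lone library of a strain is then assumed to vary like the others. Genes of the lists called numbered 1 in GPD-SIR3 against WT (2 with DESeq2, 1 without any 1 library) and 18 in GPD-SIR3-A2Q against WT (11 without either GPD-SIR3-A2Q library, up to 19 without another). SIR3 itself, overexpressed by design, is the 1 gene called in GPD-SIR3 against WT and is among the 18. The cause of the shifts between settings was not tested. Equal sums over the XUT, CUT and SUT types moved the median log2 change of all rows to -0.28 (main -0.08) in GPD-SIR3 against WT. The medians moved to -0.17 (main -0.02) in GPD-SIR3-A2Q against WT and -0.30 (main 0.04) in SIR3Δ against WT. With the replicate number as a block, 3, 0, 11 and 5 XUTs were called in the 4 comparisons. The numbers were not taken to pair the libraries, since correlations of same-numbered deviations were -0.0795 to 0.223 between the strains compared and there are only 2 numbers. Low counts limit the results, as 666 of 1408 XUTs could not be tested, and so does the number of 2 libraries per strain.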
